A study of Mus musculus with 8 samples.

Results

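The 9 genes described here encode enzymes that make or oxidise cysteine, or that take part in making and removing sulfide: Cth, Cbs, Selenbp1, Mpst, Sqrdl, Ethe1, Tst, Suox and Cdo1. They were found by symbol in a deposited table of 24033 genes, where each of the 9 had 1 row, and 8 of them passed the level filter that left 12535 genes for testing. The group was chosen by pathway role after it was known that Cth and Selenbp1 fell in the comparison of K15-SKO with MyoCre muscle, so the values of the 9 genes in that comparison are a description and are not independent evidence. RNA was sequenced from soleus, a slow oxidative muscle of the lower hindlimb. The 4 K15-SKO mice had the genotype Myogenin-Cre/+;K15F/F, with 1 copy of a Cre recombinase under the control of myogenin, a gene of developing and mature muscle fibres, and floxed alleles of Klf15. The 4 MyoCre mice had the genotype Myogenin-Cre/+, so both groups carried the Cre and all mice were 2 months old. The study asks what the loss of KLF15, a zinc finger protein that controls genes of amino acid and lipid metabolism, does to the transcripts of this muscle. Cells without the Cre, such as those of vessels, fat and connective tissue, are in the same samples, and in whole muscle fewer cells of a type and less RNA per cell cannot be told apart.

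Cysteine is made by transsulfuration: cystathionine beta-synthase joins homocysteine, which comes from methionine, to serine, and cystathionine gamma-lyase then splits the product. Cysteine is oxidised to a sulfinate on the way to taurine, or gives up its sulfur as sulfide. Sulfide is a poison of cytochrome c oxidase, and mitochondria remove it with a quinone-linked oxidase, a persulfide dioxygenase, sulfurtransferases and finally sulfite oxidase, which together turn it into thiosulfate and sulfate while feeding electrons to the respiratory chain.

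Transcript levels are given as FPKM, fragments scaled to transcript length and library size, and log2 fold changes are those of FPKM + 0.5, K15-SKO over MyoCre, with the moderated standard error (SE) of limma. The summed FPKM of a library ran from 519884 to 652275, and depth estimated from the lowest values was roughly 7500000 to 9950000 fragments in 7 libraries and 23200000 in MyoCre replicate 2. That library was also the only male by its Y-linked transcripts, and K15-SKO replicate 3 stood apart with 14.1% of its summed FPKM in Rn7sk, against 8.67% to 10.5% in the others. Klf15 itself measured 15.7, 19.3, 16.7 and 13.1 FPKM in the K15-SKO libraries, against 44.5, 49.8, 49.1 and 22.8 FPKM in the MyoCre libraries, with no overlap. Its call depended on the settings: the limma adjusted p was 0.0315, and it passed 0.05 in 10 of 31 alternative fits. Muscle fibre markers summed to between 17448 and 31454 FPKM in K15-SKO and between 16466 and 28117 FPKM in MyoCre muscle, with 10 of 10 measured. The median log2 fold change over all tested genes was -0.12, and 0.00 after median-of-ratios scaling. Fold changes of the 8 tested genes of the group are therefore also given relative to the median of -0.12. Over all tested genes 23 (0.183%) were lower and 46 (0.367%) higher in K15-SKO muscle at an adjusted p under 0.05, and all of the 46 had a listed value of 0 throughout the MyoCre group. The 46 include Acta1, Cox4i1 and Myh2, with means of 13428, 979 and 1407 FPKM in K15-SKO and 0 in MyoCre muscle. Whether such zeros are true levels or missing entries was not tested, so the 46 are not read as a rise. The 9 genes are not among those 46.

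Cth and Selenbp1 had 26.5% and 27.0% of their MyoCre means in K15-SKO muscle, while the genes of the central sulfide oxidation steps, Sqrdl and Ethe1, measured 105% and 87.6%. Between these lay Cdo1 with 43.0%, Tst with 49.2%, Mpst with 74.6% and Suox with 76.0%. Of the 9 genes 2 (Cth and Selenbp1) were called lower and 0 higher, where 0.183% of all tested genes were called lower. In 5 of the 8 tested genes (Cth, Selenbp1, Tst, Suox and Cdo1) all 4 K15-SKO values were lower than all 4 MyoCre values, an ordering found in 2.72% of all tested genes. Because the group was put together with this comparison in view, nothing is read from these shares. The median log2 fold change of the 8 genes was -0.68, beside -0.12 for all tested genes, and 7 of the 8 lay below that median.

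**Figure D1:**
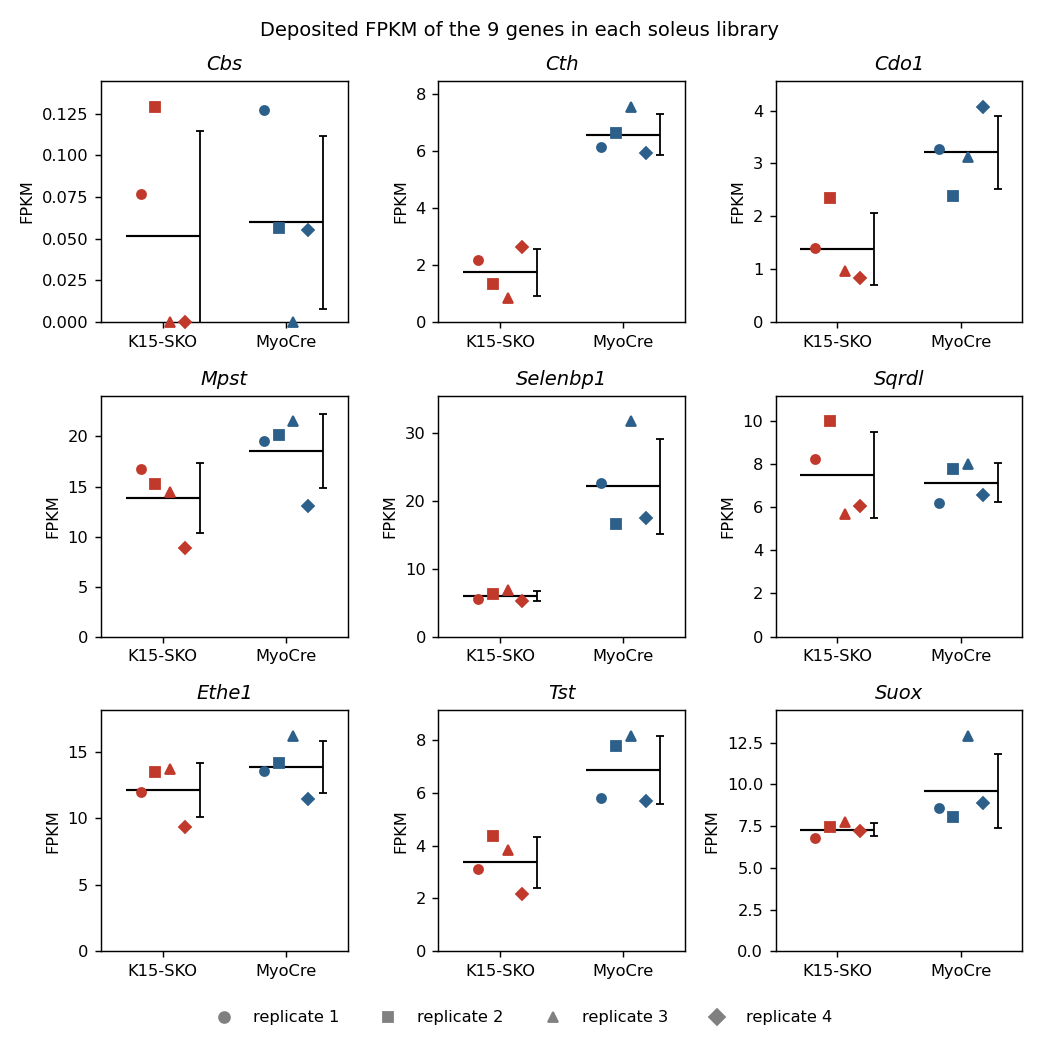
FPKM (vertical axis, from 0, with a scale of its own in each panel) of each gene in the 4 K15-SKO libraries (red, left) and the 4 MyoCre libraries (blue, right), with marker shapes for replicates 1 to 4, the mean as a horizontal line and the SD as a bar, which is cut at 0 for Cbs in K15-SKO. The Cth points sit between 0.840 and 2.64 in K15-SKO and between 5.94 and 7.54 in MyoCre muscle, while the Sqrdl points of the groups mix.

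Promoter sequences were available for 6 of the 9 genes from RefSeq (GRCm38.p6), each running from 250 bases before to 50 after an annotated start. Cth, Tst and Cdo1 are named only. Those of Selenbp1, Sqrdl and Suox are printed because Selenbp1 is the called gene with an entry, Sqrdl is the gene whose groups mixed most, and Suox holds the most GC boxes; these were picked after their values were seen. They lie at chr3:94932833-94933132 on the plus strand, chr2:122771463-122771762 on the plus strand and chr10:128673869-128674168 on the minus strand, and are written 5′ to 3′ along the gene. The RefSeq starts of Selenbp1, Sqrdl and Suox used here lie downstream of their GENCODE gene starts. Part of the Selenbp1 and Suox stretches and all of the Sqrdl stretch therefore lie inside the GENCODE gene. Capitals mark the CACCC box, a motif class bound by Kruppel-like factors (CACCC or GGGTG), and the GC box (CCGCCC or GGGCGG), searched on both strands.
Selenbp1: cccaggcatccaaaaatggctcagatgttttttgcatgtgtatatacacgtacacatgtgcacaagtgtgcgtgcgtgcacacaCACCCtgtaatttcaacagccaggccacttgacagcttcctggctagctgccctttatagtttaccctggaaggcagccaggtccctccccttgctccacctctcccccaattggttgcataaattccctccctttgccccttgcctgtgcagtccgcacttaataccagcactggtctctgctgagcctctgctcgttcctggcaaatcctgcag
Sqrdl: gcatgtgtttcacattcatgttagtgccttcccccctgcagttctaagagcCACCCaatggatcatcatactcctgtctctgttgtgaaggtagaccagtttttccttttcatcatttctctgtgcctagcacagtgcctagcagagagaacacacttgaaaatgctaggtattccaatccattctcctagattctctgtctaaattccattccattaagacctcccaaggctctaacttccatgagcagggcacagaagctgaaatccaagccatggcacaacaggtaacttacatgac
Suox: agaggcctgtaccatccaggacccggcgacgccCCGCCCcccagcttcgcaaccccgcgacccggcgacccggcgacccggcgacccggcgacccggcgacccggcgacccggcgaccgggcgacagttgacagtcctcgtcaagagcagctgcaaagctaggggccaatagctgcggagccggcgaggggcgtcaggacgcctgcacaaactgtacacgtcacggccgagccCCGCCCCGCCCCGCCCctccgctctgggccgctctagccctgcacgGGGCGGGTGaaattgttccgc
Selenbp1 and Sqrdl each held 1 CACCC match, starting 166 and 199 bases before the start, and no GC box. Suox held 5 GC boxes and 1 CACCC match, 34 bases into the RefSeq transcript, which overlaps a GC box. A CACCC match on either strand was present in 57.5% of all 32851 promoters of this length and a GC box in 35.7%, and among the 9 promoter entries of the 6 genes 8 held the first and 4 the second; Mpst has 3 entries, which overlap in part, and Ethe1 has 2. TGACNNNGC, the core of the antioxidant response element, was found in 1 of the 9 entries (Mpst) and in 12.4% of all promoters. TGATGNAA, the core shared by CEBP-ATF composite sites, was found in 1 entry (Sqrdl) and in 4.0% of all promoters, and TATAAA in 1 entry (Selenbp1) and in 13.6%. These matches describe letters and not binding.

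Of the enzymes of transsulfuration only Cth was measured above the level filter. Cbs, the first enzyme of the pathway, measured 0.0765, 0.129, 0 and 0 FPKM in the K15-SKO libraries, against 0.127, 0.0567, 0 and 0.0555 FPKM in the MyoCre libraries. The groups overlap, 3 of the 8 libraries list the gene at 0, and Cbs was under the level filter. In the fit with no filter its log2 fold change was -0.02 (limma adjusted p = 0.968), and at these levels a difference was not detectable. Cth, cystathionine gamma-lyase, which releases cysteine and can also make hydrogen sulfide, measured 2.16, 1.32, 0.840 and 2.64 FPKM in the K15-SKO libraries, against 6.15, 6.63, 7.54 and 5.94 FPKM in the MyoCre libraries. The highest K15-SKO library, replicate 4, stayed well under the lowest MyoCre library, replicate 4. Cth averaged 1.74 ± 0.811 FPKM in K15-SKO and 6.56 ± 0.712 FPKM in MyoCre muscle (SD, n = 4 each), with a log2 fold change of -1.73 (SE 0.25), or -1.60 relative to the median of all genes. Its spread was unequal, with a coefficient of variation of 46.6% in K15-SKO and 10.8% in MyoCre libraries. With the longest annotated transcript these levels correspond to roughly 13 to 42 fragments per K15-SKO library and 81 to 279 per MyoCre library, counts that limit the precision of the K15-SKO values. The lowest Cth value was in K15-SKO replicate 3, the library with the high Rn7sk share, and without it the log2 fold change was -1.51. Without the male library, MyoCre replicate 2, it was -1.72. Cth lies on chromosome 3 from 157894248 to 157925077 on the minus strand of GRCm38 (mm10), and 1 gene model still to be experimentally checked, Gm43314 on the same strand, overlaps it.

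Selenbp1, the other called gene, differed about as much as Cth and varied less among the K15-SKO libraries, with a coefficient of variation of 12.7% in K15-SKO and 31.3% in MyoCre muscle. The gene encodes a methanethiol oxidase, which breaks down the methanethiol formed from methionine into hydrogen sulfide, hydrogen peroxide and formaldehyde. It measured 5.55, 6.32, 6.88 and 5.19 FPKM in the K15-SKO libraries, against 22.7, 16.6, 31.7 and 17.5 FPKM in the MyoCre libraries. All K15-SKO libraries sit within a narrow band far below the control band, and the spread is on the MyoCre side, with replicate 3 highest. The means were 5.98 ± 0.762 FPKM in K15-SKO and 22.1 ± 6.94 FPKM in MyoCre muscle (SD, n = 4 each), a log2 fold change of -1.76 (SE 0.22), or -1.64 relative to the median of all genes. It was -1.83 without K15-SKO replicate 3 and -1.88 without MyoCre replicate 2. Selenbp2, its near-identical neighbour on chromosome 3, 239500 bases away, had at most 0.0744 FPKM in K15-SKO and 0.0812 FPKM in MyoCre libraries, and how the authors' counting placed reads shared by the copies was not given. Red blood cells also hold this enzyme, and erythroid markers summed to 321 to 2039 FPKM in K15-SKO and 284 to 459 FPKM in MyoCre libraries, with all 5 tested markers above the median of all genes. The library with the sum of 2039, K15-SKO replicate 3, had the highest Selenbp1 value of its group, 6.88 FPKM, which is below every MyoCre library, and the part of these cells in the result was not tested. The Selenbp1 gene is at 94933056 to 94944758 of chromosome 3, plus strand.

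The limma adjusted p-values by which these 2 genes came to notice were 0.00189 for Cth and 0.000385 for Selenbp1. They are quoted as the values behind the choice of the group. With genes listed at 0 throughout a genotype removed and all 8 libraries kept, limma gave 0.014 for Cth and 0.0066 for Selenbp1. When genes with a listed 0 throughout a genotype were removed, leaving out K15-SKO replicate 3 ended both calls (adjusted p = 0.0652 for Cth and 0.0627 for Selenbp1), as did leaving out MyoCre replicate 3 (0.206 and 0.074), and leaving out MyoCre replicate 1 ended that of Cth (0.0728). With those genes removed and all 8 libraries kept, quantile normalization also ended both calls (0.0654 for Cth and 0.0554 for Selenbp1), and median-of-ratios scaling ended that of Cth (0.0579). The log2 fold changes kept their sign throughout the alternatives, from -1.97 to -1.50 for Cth and from -1.88 to -1.58 for Selenbp1.

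**Figure D2:**
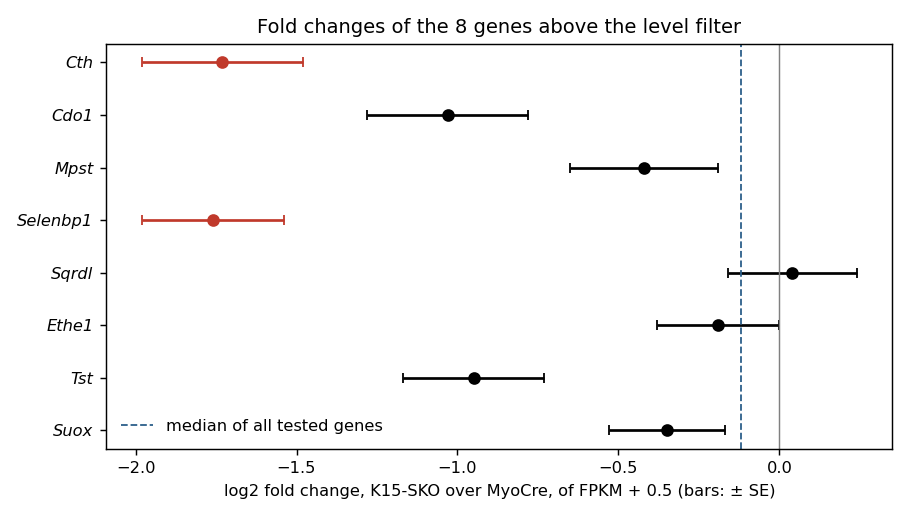
Log2 fold change of FPKM + 0.5, K15-SKO over MyoCre (horizontal axis), with bars of 1 SE to each side, for the 8 tested genes from cysteine synthesis at the top to sulfite oxidation at the bottom; red marks the called genes and the dashed line the median of all tested genes, -0.12. Cth and Selenbp1 stand at -1.73 and -1.76, Cdo1 and Tst at -1.03 and -0.95, and the other 4 between -0.42 and 0.04.

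Cysteine leaves for taurine through Cdo1, cysteine dioxygenase, and for sulfide through Mpst, the mercaptopyruvate sulfurtransferase. Cdo1 measured 1.40, 2.34, 0.959 and 0.831 FPKM in the K15-SKO libraries, against 3.28, 2.38, 3.12 and 4.07 FPKM in the MyoCre libraries. The groups do not overlap, but K15-SKO replicate 2 lies just under MyoCre replicate 2, the male library. Cdo1 averaged 1.38 ± 0.681 FPKM in K15-SKO and 3.21 ± 0.694 FPKM in MyoCre muscle (SD, n = 4 each). The log2 fold change was -1.03 (SE 0.25), or -0.90 relative to the median of all genes, and Cdo1 did not pass the threshold. It passed without K15-SKO replicate 2 (-1.24, limma adjusted p = 0.0218) and with library weights (-0.87, adjusted p = 0.0362). Cdo1 rests on few reads, roughly 11 to 33 fragments per K15-SKO library and 41 to 88 per MyoCre library with the longest transcript, and the added 0.5 FPKM understates the fold change at this level. Fat cells are a known site of Cdo1, and adipocyte markers summed to 254 to 498 FPKM in K15-SKO and 260 to 347 FPKM in MyoCre libraries, most of it from Fabp4, at 312 ± 101 FPKM in K15-SKO and 264 ± 39.3 FPKM in MyoCre muscle (SD, n = 4 each). Plin1, Cfd and Adipoq, which are more specific to fat cells, had 59.1%, 65.3% and 66.7% of their MyoCre means in K15-SKO muscle, with overlapping groups. Of the 6 tested adipocyte markers 5 lay below the median of all genes and 0 were called, Adrb3 was listed at 0 in 2 K15-SKO libraries, and the part of fat cells in the Cdo1 values was not tested. Of the other cell types, fibroblast markers summed to 404 to 711 FPKM in K15-SKO and 548 to 945 FPKM in MyoCre libraries, and macrophage markers to 28.6 to 58.8 FPKM in K15-SKO and 53.9 to 67.2 FPKM in MyoCre libraries. Endothelial markers summed to 105 to 130.2 FPKM in K15-SKO and 81.2 to 113 FPKM in MyoCre libraries, Schwann cell markers to 13.3 to 18.2 FPKM in K15-SKO and 15.5 to 20.9 FPKM in MyoCre libraries, and smooth muscle markers to 27.2 to 43.0 FPKM in K15-SKO and 34.0 to 59.2 FPKM in MyoCre libraries. Of the tested markers, 6 of 7 fibroblast and 6 of 6 macrophage genes lay below the median of all genes. So did 3 of 3 Schwann cell and 3 of 3 smooth muscle genes. The counts were 0 of 6 for endothelial and 3 of 10 for muscle fibre genes. The part of these cells in the values of the 9 genes was not tested. No marker of any list was called, and no marker in the table was at 0 in all 8 libraries.

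Mpst measured 16.8, 15.3, 14.5 and 8.85 FPKM in the K15-SKO libraries, against 19.5, 20.1, 21.5 and 13.1 FPKM in the MyoCre libraries. Replicate 4 was the lowest of each group, and the groups overlap only through MyoCre replicate 4. Mpst averaged 13.8 ± 3.46 FPKM in K15-SKO and 18.5 ± 3.74 FPKM in MyoCre muscle (SD, n = 4 each). The log2 fold change of Mpst was -0.42 (SE 0.23), or -0.30 relative to the median of all genes, and it did not pass; it was -0.23 without K15-SKO replicate 4.

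The enzymes that oxidise sulfide in mitochondria differed in how far the groups overlapped. Sqrdl (Sqor in current annotation), the sulfide quinone oxidoreductase that takes up sulfide first, measured 8.24, 9.96, 5.70 and 6.07 FPKM in the K15-SKO libraries, against 6.19, 7.78, 7.99 and 6.58 FPKM in the MyoCre libraries. The K15-SKO libraries fall on both sides of the MyoCre range, 2 above it and 2 below it, with means of 7.49 ± 1.99 FPKM in K15-SKO and 7.13 ± 0.884 FPKM in MyoCre muscle (SD, n = 4 each). The log2 fold change of 0.04 (SE 0.20) for Sqrdl turned sign when K15-SKO replicate 1 or 2 or MyoCre replicate 1 was left out. Ethe1, the persulfide dioxygenase, measured 12.0, 13.5, 13.7 and 9.34 FPKM in the K15-SKO libraries, against 13.6, 14.2, 16.2 and 11.5 FPKM in the MyoCre libraries. The ranges of Ethe1 overlap, with means of 12.2 ± 2.03 FPKM in K15-SKO and 13.9 ± 1.93 FPKM in MyoCre muscle (SD, n = 4 each) and a log2 fold change of -0.19 (SE 0.19), or -0.06 relative to the median of all genes; it was -0.07 without K15-SKO replicate 4 and -0.11 without MyoCre replicate 3. Zfp575 overlaps Ethe1 on the opposite strand, and without a stated strand setting reads of the pair cannot be told apart.

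Tst, thiosulfate sulfurtransferase or rhodanese, measured 3.12, 4.36, 3.85 and 2.15 FPKM in the K15-SKO libraries, against 5.80, 7.77, 8.14 and 5.68 FPKM in the MyoCre libraries. The groups are separate, with means of 3.37 ± 0.960 FPKM in K15-SKO and 6.85 ± 1.29 FPKM in MyoCre muscle (SD, n = 4 each). The log2 fold change was -0.95 (SE 0.22), or -0.82 relative to the median of all genes, and Tst missed the threshold. It passed with library weights (limma adjusted p = 0.008) and in 1 of 3 fits with the replicate number as a term (0.0249, against 0.078 with median-of-ratios scaling and 0.0567 without the genes listed at 0). Tst is the paralogue of Mpst and its neighbour on chromosome 15: Tst runs from 78399556 to 78405907 on the minus strand and Mpst from 78406416 to 78414013 on the plus strand, with 509 bases between their starts. Within single libraries the ratio of Mpst to Tst FPKM was 3.51 to 5.39 in K15-SKO and 2.30 to 3.36 in MyoCre muscle, so the head-to-head neighbours did not keep 1 ratio across the genotypes in these values.

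Suox, the molybdenum-dependent sulfite oxidase of the last step, measured 6.79, 7.45, 7.75 and 7.20 FPKM in the K15-SKO libraries, against 8.56, 8.05, 12.9 and 8.91 FPKM in the MyoCre libraries. The groups do not overlap as deposited, but the gap is narrow, and after median-of-ratios scaling the ranges were 6.63 to 9.72 in K15-SKO and 7.59 to 11.2 in MyoCre libraries, which overlap. The coefficient of variation of Suox was 5.54% in K15-SKO, the lowest of the group, and 23.2% in MyoCre libraries. Suox averaged 7.30 ± 0.404 FPKM in K15-SKO and 9.60 ± 2.23 FPKM in MyoCre muscle (SD, n = 4 each), with a log2 fold change of -0.35 (SE 0.18), which was -0.21 without MyoCre replicate 3, and did not pass. The separation of Cth, Selenbp1, Tst and Cdo1 remained after the same scaling, which left 4 of the 5 separate genes. For Cdo1 the gap was then narrow, with a highest K15-SKO value of 2.19 and a lowest MyoCre value of 2.24. The share of all tested genes that were separate after this scaling was not computed, so nothing is read from the count.

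**Figure D3:**
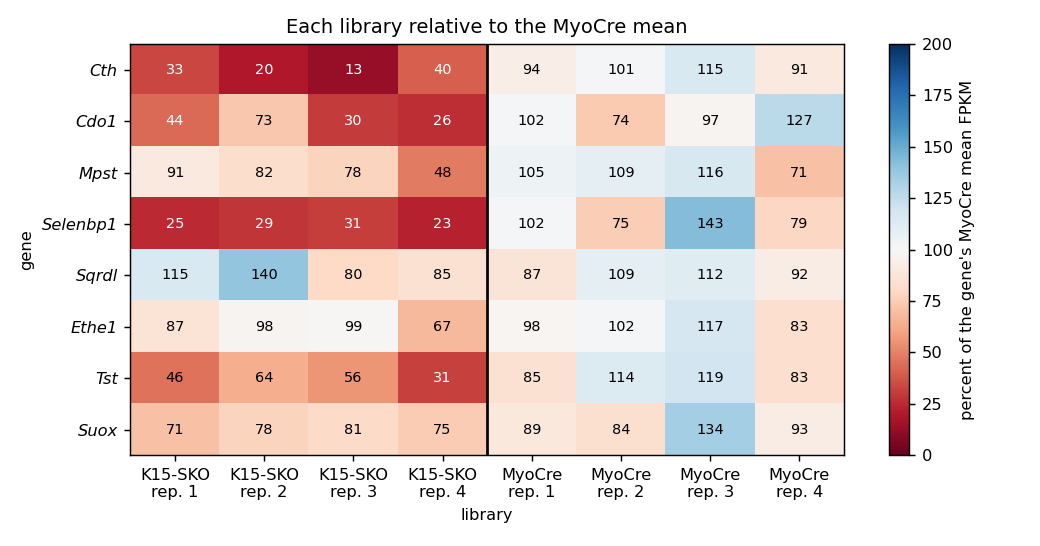
Each library (columns, K15-SKO left of the line and MyoCre right of it) as a percentage of the mean MyoCre FPKM of each gene (rows), printed in the cells and coloured from red (low) through white (100) to blue (high); Cbs is left out because it was near 0. The Cth and Selenbp1 rows are low across all 4 K15-SKO columns, with 12.8% to 40.2% and 23.4% to 31.1%, whereas the Sqrdl row reaches 139.6% in K15-SKO replicate 2.

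The order of the levels, which FPKM allow because they are per length, differed between the genotypes mainly through Selenbp1. In K15-SKO muscle the order from high to low was Mpst, Ethe1, Sqrdl, Suox, Selenbp1, Tst, Cth, Cdo1 and Cbs, and neighbours overlapped except Selenbp1 with Tst and Cdo1 with Cbs. In MyoCre muscle it was Selenbp1, Mpst, Ethe1, Suox, Sqrdl, Tst, Cth, Cdo1 and Cbs, and neighbours overlapped except Suox with Sqrdl, Cth with Cdo1 and Cdo1 with Cbs. Selenbp1 thus stood below 4 of the genes in K15-SKO and above all of them in MyoCre muscle by its mean, and its ratio to Ethe1 FPKM within a library was 0.462 to 0.555 in K15-SKO and 1.17 to 1.96 in MyoCre muscle. The FPKM ratio of Cth to Sqrdl within a library was 0.132 to 0.435 in K15-SKO muscle and 0.852 to 0.993 in MyoCre muscle. Among all tested genes Selenbp1 stood above 81.1% by its MyoCre mean, Mpst above 77.6%, Ethe1 above 71.6%, Cth above 51.1% and Cdo1 above 28.9%.

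Single libraries held the extremes of several genes, and these counts moved with library scaling. K15-SKO replicate 4 held the lowest value of its group in 5 of the 8 measurable genes (Selenbp1, Mpst, Ethe1, Tst and Cdo1) but the highest Cth. MyoCre replicate 3 held the highest value of its group in 7 of the 8, all but Cdo1. The median-of-ratios factor was 1.156 in MyoCre replicate 3 and 0.797 in K15-SKO replicate 3, against 0.955 to 1.065 in the other 6 libraries. After scaling K15-SKO replicate 4 was still lowest in 5 of the 8 genes and MyoCre replicate 3 was highest in 4. K15-SKO replicate 3 was highest in 5 genes after scaling and in 3 as deposited, and MyoCre replicate 1 was lowest in 3 after scaling and in 1 as deposited.

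The wider sulfur pathways held no called gene. Of 70 listed genes 67 were in the table and 58 tested, with 0 lower and 0 higher at an adjusted p under 0.05 in limma. Over all tested genes 0.183% were lower and 0.367% higher, the latter all listed at 0 in MyoCre muscle. At an unadjusted p under 0.05 limma gave 1 lower gene among the 58, Gnmt, and 0 higher, beside 3.43% and 0.901% of all tested genes. Their median log2 fold change was -0.11, beside -0.12 for all tested genes, and 25 of the 58 lay below that median. In 5 of 31 alternative fits 1 gene was called, in each case Gnmt.

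Gnmt, glycine N-methyltransferase, which uses up the methyl donor made from methionine and is best known from liver, was the listed gene with the lowest fold change. It measured 1.09, 0.720, 0.999 and 0.293 FPKM in the K15-SKO libraries, against 4.43, 1.95, 5.41 and 1.63 FPKM in the MyoCre libraries. The groups of Gnmt do not overlap, but the MyoCre values are widely spread, with a log2 fold change of -1.51 (SE 0.34, limma adjusted p = 0.127). The other 9 tested genes of the methionine cycle and its methyl transfers had log2 fold changes between -0.33 and 0.00, among them Mtrr, which keeps methionine synthase active, with -0.33 and 5.41 ± 1.41 FPKM in K15-SKO and 6.73 ± 0.555 FPKM in MyoCre muscle (SD, n = 4 each). Serine for the first step of transsulfuration comes from Psat1 among others, which measured 2.28 ± 1.19 FPKM in K15-SKO and 3.39 ± 1.02 FPKM in MyoCre muscle, and the serine racemase Srr had a log2 fold change of -0.31. None of the 3 tested serine genes passed.

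Transport and further use of cysteine showed small differences on both sides of 0 among its tested genes. Of these 14 tested genes 4 lay below the median of all genes. Under the level filter, Slc1a4 had 66.3% of its MyoCre mean in K15-SKO muscle, with separate ranges. Slc7a11 and Slc3a1, at still lower levels, had 33.7% and 179% with overlapping ranges. Slc1a5, a carrier of neutral amino acids, measured 7.92 ± 1.34 FPKM in K15-SKO and 10.2 ± 0.636 FPKM in MyoCre muscle, with separate ranges and a log2 fold change of -0.36. Cars2, the mitochondrial cysteinyl-tRNA synthetase, which can also make cysteine persulfides, measured 5.66 ± 0.144 FPKM in K15-SKO and 4.55 ± 0.575 FPKM in MyoCre muscle, with every K15-SKO library above every MyoCre library and a log2 fold change of 0.29. Both missed the threshold, with a limma adjusted p of 0.957 each. Glutathione synthesis, which competes for cysteine, had Gclc at a log2 fold change of -0.03 and Gclm at 0.12.

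The remaining lists lay near the median of all genes. In taurine synthesis and transport 5 of 5 genes were tested and none called, with the cysteamine dioxygenase Ado at a log2 fold change of -0.29 and the taurine transporter Slc6a6 at 0.20. Among 9 tested sulfurtransferases and persulfide carriers Tstd3, a rhodanese domain protein, had the lowest value, -0.41, and the thioredoxin reductase Txnrd1 had -0.31. In molybdenum cofactor synthesis, on which sulfite oxidase depends, Mocs1 had -0.35 and Nfs1, the cysteine desulfurase, -0.20. Among 5 tested sulfate and thiosulfate genes the dicarboxylate carrier Slc25a10, which also moves thiosulfate, had -0.13 and the sulfate-activating Papss2 0.09. Of the 9 genes for ubiquinone, the electron acceptor of the sulfide oxidase, Coq5 had -0.28 and Coq3 -0.33, and the list's median of -0.11 was close to that of all genes.

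**Figure D4:**
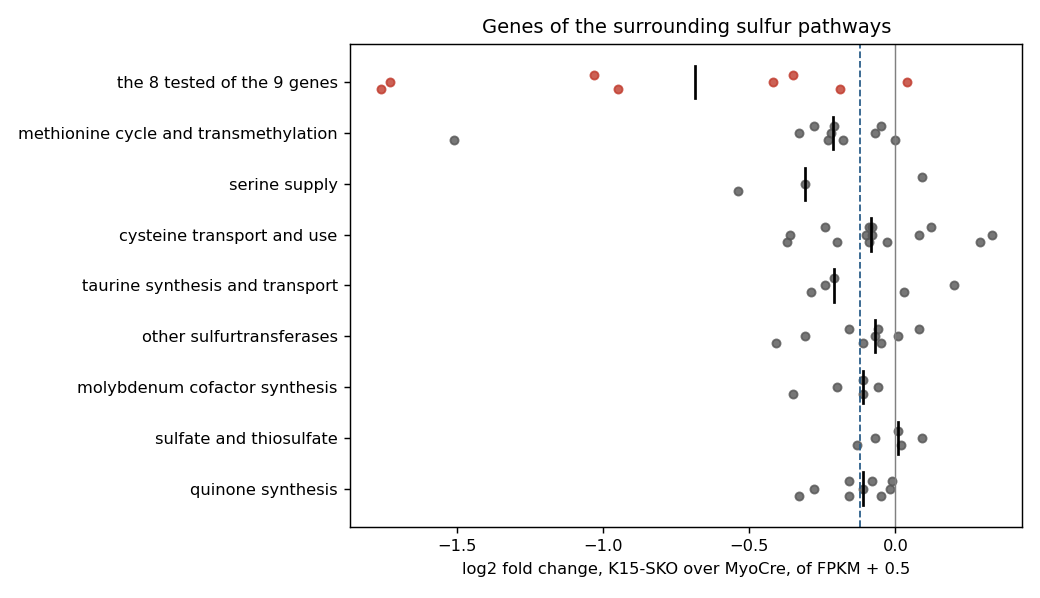
Log2 fold change of FPKM + 0.5, K15-SKO over MyoCre (horizontal axis), of each tested gene (points) in the 8 tested of the 9 genes (red) and in 8 lists of surrounding sulfur pathways (grey), with list medians as short black lines and the median of all tested genes, -0.12, as the dashed line. The grey points lie between -0.41 and 0.33 except Psat1 at -0.54 and Gnmt at -1.51.

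Genes with the pattern closest to Cth and Selenbp1 over the 8 libraries were sought by the root-mean-square distance between log2 profiles centred on each gene's own mean. Closest to Cth were Bckdhb (0.330), Adhfe1 (0.351), Dbt (0.361), Gm23820 (0.389) and Gstk1 (0.403). The median distance was 0.885, over the tested genes with values in both genotypes. Closest to Selenbp1 were Gstm7 (0.220), Gstk1 (0.289), Bcat2 (0.337), Pdp2 (0.342) and Gnmt (0.352), with a median of 0.902. Bckdhb and Dbt, subunits of the branched-chain ketoacid dehydrogenase, measured 10.9 ± 2.29 and 5.56 ± 1.91 FPKM in K15-SKO muscle, and 26.8 ± 4.58 and 15.1 ± 2.05 FPKM in MyoCre muscle (SD, n = 4 each). Selenbp1 and Cth lay 0.486 apart. The distances include the difference between the genotypes, by which both genes were chosen, and are a description.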

How the data were processed

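RNA-seq of soleus gave 1 deposited table with a value per gene for 4 K15-SKO and 4 MyoCre libraries, grouped by genotype as labelled. Its unit is not named in the sources used here, and the values were read as FPKM that the authors deposited. STAR, Cufflinks, Cuffdiff and the mm10 build are named, per the submitters' processing notes, without roles or versions. FPKM + 0.5 was log2-transformed and fitted with limma 3.58.1 in R 4.3.3 (trend and robust variance, genotype as the term) over genes whose mean over the 8 libraries reached 1 FPKM, with Benjamini-Hochberg adjustment over all tested genes and a threshold of 0.05; SE is the moderated standard error. The fit was tested on simulated data, drawn from genes with a value in every library and without differences in scale between libraries. That test therefore covers neither the genes listed at 0 nor the library scaling. Depth is approximate, estimated from the lowest FPKM values, since whole reads could not be recovered, so no counting intervals are given. The p-values set the difference between the genotypes against the spread between samples within a genotype, moderated across genes.

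The 9 genes, the pathway lists and the marker lists were chosen with earlier results of these data known. The genes named are the 9, Klf15, the called genes of each list or else the 2 with the smallest p, and the 5 nearest to Cth and to Selenbp1. Gclc, Gclm, Selenbp2, Slc1a4, Slc7a11, Slc3a1, Acta1, Cox4i1 and Myh2 were added after their values were seen. Gene positions are from GENCODE M21 (GRCm38) and promoters from RefSeq (GRCm38.p6). The alternatives were other pseudocounts, filters, scalings and variance settings, a term for the replicate number, removal of 159 genes listed at 0 in a whole genotype, and removal of each library.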

Additional observations from a re-analysis of the deposited data

Results flagged for a closer look

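Gstm7, a glutathione transferase named for its closeness to Selenbp1, had 1 K15-SKO library apart from the rest: replicate 4 measured 0.989 FPKM, while the other 3 K15-SKO libraries measured 1.69, 1.71 and 1.81 FPKM. The gap was 0.860 of the group's range, above Dixon's critical value for 4 samples. Of 68 groups of 4 values checked this was the only such case, and chance alone gives about 3.40 (1 in 20).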

How the results depend on the processing

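The log2 fold changes of the 8 tested genes kept their direction under the alternatives that gave a value, except that of Sqrdl, which ran from -0.10 to 0.15 with a library left out: -0.01 without K15-SKO replicate 1, -0.10 without K15-SKO replicate 2 and -0.02 without MyoCre replicate 1. Cth passed the threshold in 25 of 30 alternatives and Selenbp1 in 28 of 31. The lower genes among the 9, 2 as reported, numbered 1 with a mean of at least 5 FPKM (Cth then fell under the filter), 4 with library weights (Tst, adjusted p = 0.008, and Cdo1, adjusted p = 0.0362, in limma, were added), 1 without the genes listed at 0 and with median-of-ratios scaling, 0 without those genes and with quantile normalization, and 0 to 3 with a library left out (Cdo1 joined without K15-SKO replicate 2). Over all genes the 23 lower genes became 14 with quantile, upper-quartile or median-of-ratios scaling, 15 without robust estimation, 101 with library weights, 12 without the genes listed at 0, 3 without those and with median-of-ratios scaling, 0 in limma without those and with quantile normalization (261 at an unadjusted p under 0.05), and 0 to 28 with a library left out. Leaving out K15-SKO replicate 1 gave 13, MyoCre replicate 1 gave 14 and MyoCre replicate 3 gave 8, and with the genes listed at 0 removed as well the counts were 5, 10, 0 and 13 without K15-SKO replicates 1 to 4 and 2, 14, 0 and 7 without MyoCre replicates 1 to 4. The 46 higher genes became 22 with a mean of at least 5 FPKM, 0 whenever the genes listed at 0 were removed with all libraries kept, and 0 to 54 with a library left out. In the wider lists 1 lower gene, Gnmt, was called with library weights and with each fit with a replicate block, and 0 to 1 with a library left out. The shared replicate numbers were not shown to pair the samples: deviations of same-numbered samples correlated at 0.10, 0.23, 0.00 and 0.28, and 2 of 4 numbers matched best with their own. With the replicate block 32 genes were lower and 46 higher, 3 of them among the 9 (Tst joined, limma adjusted p = 0.0249), or 25 lower with median-of-ratios scaling as well, where Tst did not pass (0.078), nor did it with the block and without the genes listed at 0 (0.0567). The cause of these changes was not tested. Depth limits Cbs, Cdo1 and Cth most.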
